A study of Mus musculus with 18 samples.

Results

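Slc2a1 and Slc2a4 encode GLUT1 and GLUT4, the facilitative glucose transporters that carry glucose into heart muscle cells. They were found on the arrays as every spot with the platform symbol Slc2a1 or Slc2a4, which gave 3 spots of 28704, for 2 genes of 10225 symbols. Spots 5997 and 7689 carried the symbol Slc2a1, and spot 23486 carried Slc2a4. All 3 spots had a value on all 18 arrays.

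GLUT1 sits in the plasma membrane of most cells and supplies basal glucose uptake. It is abundant at the blood-brain barrier and in human red cells, and its transcription rises when hypoxia-inducible factors are active. GLUT4 is the insulin-responsive transporter of heart muscle, skeletal muscle and fat. It is held in vesicles that move to the surface on insulin signals or on contraction and energy stress, so its uptake activity can change without a change in its mRNA.

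Hearts came from mice under chronic constant hypoxia (CCH) for 1, 2 or 4 weeks, from mice under chronic intermittent hypoxia (CIH) for the same times, and from controls of 1, 2 or 4 weeks. Each of the 9 groups had 2 arrays, so each condition had 6. The labels used here give no strain, age, oxygen level or genotype. They do not name the animals behind each array, so p-values describe the scatter of arrays, which may be technical. Each array was hybridised with cDNA of male hearts in Cy5 and of female hearts in Cy3, both of the same condition and duration.

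All values are therefore log2 ratios of male over female signal within a condition, after the median of each array was set to 0. A negative value means more signal from the female hearts than the typical spot showed. Male cDNA was in Cy5 on every array, with no dye swap, so sex and dye cannot be told apart in a ratio set against 0, and such results are given below as higher or lower in the male channel. A dye offset of a spot that is equal on all arrays drops out of a difference between conditions. A difference between CIH and control is a difference in the male to female ratio, not in the level of the transcript, and the arrays give no level of either gene. The direction of the ratio was taken from Eif2s3y, a Y-linked gene that only male cells carry. Its log2 ratio lay between 0.997 and 2.28 on 17 arrays and was -0.0255 on CIH 4 weeks replicate 1, which went against the labelled pairing of a male and a female heart. CIH 1 week replicate 1 has source names of another group (CCH, 2 weeks), and the title of control 2 weeks replicate 1 ends in the code of a 1-week array. The main tests of CIH hearts over all durations and the called relations with gene lists are given with and without these 2 CIH arrays. Arrays correlated with each other at Pearson r between -0.527 and 0.743, with a median of 0.167. Of 18 cardiomyocyte marker genes listed, 8 had a value, and ratios cannot show whether a marker was present.

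On GRCm38.p6, Slc2a1 (gene ID 20525) lies on chromosome 4 from 119108745 to 119137330, and Slc2a4 (gene ID 20528) on chromosome 11 from 69942286 to 69948216. The arrays do not say which exon or UTR a spot covers. The 250 bases upstream of the Slc2a1 start, chr4:119108495-119108744 on the plus strand, are shown because the CCH and CIH hearts came from mice under hypoxia. ACGTG is the core of the sequence that hypoxia-inducible factors bind. The sequence is from RefSeq, with ACGTG in capitals.
Slc2a1 upstream: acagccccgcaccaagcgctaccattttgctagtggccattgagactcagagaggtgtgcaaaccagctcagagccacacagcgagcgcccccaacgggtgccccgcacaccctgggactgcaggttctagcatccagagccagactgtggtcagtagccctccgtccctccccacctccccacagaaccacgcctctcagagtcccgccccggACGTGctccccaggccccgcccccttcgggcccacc
There was 1 match, searched on both strands, which began 36 bases before the start. Of 32851 promoters of the same window length, 16.6% held ACGTG on either strand. A match is a description of the letters, and binding was not measured.

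The 2 Slc2a1 spots gave different readings. Spot 5997 had a lower male to female ratio in CIH than in control hearts, just under the threshold (limma adjusted p = 0.0447). That call was lost after quantile normalization, after scaling of the arrays to a common spread and without single arrays, as given below. Spot 7689 and the Slc2a4 spot passed in no comparison of conditions. The Slc2a1 gene mean was below 0 on all 6 CIH arrays, and the difference of the mean between CIH and control missed the threshold.

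Spot 5997 read 0.0075 and 0.029 in CCH hearts at 1 week, -1.08 and 0.20 at 2 weeks, and 0.31 and 0.072 at 4 weeks. In CIH hearts it read -0.60 and 0.046 at 1 week, -1.10 and -1.67 at 2 weeks, and -0.80 and -0.60 at 4 weeks. In control hearts it read 0.10 and 0.13 at 1 week, -0.71 and 0.47 at 2 weeks, and 0.61 and 0.76 at 4 weeks. CIH arrays were the low ones, 5 of 6 being negative, while 5 of 6 CCH arrays and 5 of 6 control arrays were positive. CIH and control overlapped through CIH 1 week replicate 2, at 0.046, and control 2 weeks replicate 1, at -0.71. In 33 of the 36 pairs of a CIH and a control array, the CIH array was lower.

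Spot 7689 read -0.67 and -0.27 in CCH hearts at 1 week, 0.20 and 0.12 at 2 weeks, and 0.17 and -0.33 at 4 weeks. In CIH hearts it read 0.30 and -0.54 at 1 week, -0.050 and -0.18 at 2 weeks, and 0.19 and -0.058 at 4 weeks. In control hearts it read -0.048 and -0.094 at 1 week, -0.058 and -0.31 at 2 weeks, and -0.27 and 0.014 at 4 weeks. Every pair of conditions overlapped, and the control arrays were the closest together. Spot 5997 minus spot 7689 ranged from -1.28 to 0.68 in CCH, from -1.49 to 0.58 in CIH and from -0.65 to 0.88 in control hearts. It was negative on 5 of the 6 CIH arrays, the exception being CIH 1 week replicate 2, and on 1 of the 6 arrays in CCH and in control hearts.

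Slc2a4 read 0.32 and -1.04 in CCH hearts at 1 week, 0.31 and 0.17 at 2 weeks, and -0.23 and -0.30 at 4 weeks. In CIH hearts it read -0.21 and -0.45 at 1 week, -0.0096 and 0.27 at 2 weeks, and 0.48 and -0.40 at 4 weeks. In control hearts it read 0.19 and -0.19 at 1 week, -0.023 and -0.82 at 2 weeks, and -0.22 and -0.023 at 4 weeks. The 2 lowest readings, CCH 1 week replicate 2 and control 2 weeks replicate 2, each had a partner array of the same group that was not low. The spread between the arrays of a group was as wide as the spread between groups.

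**Figure D1:**
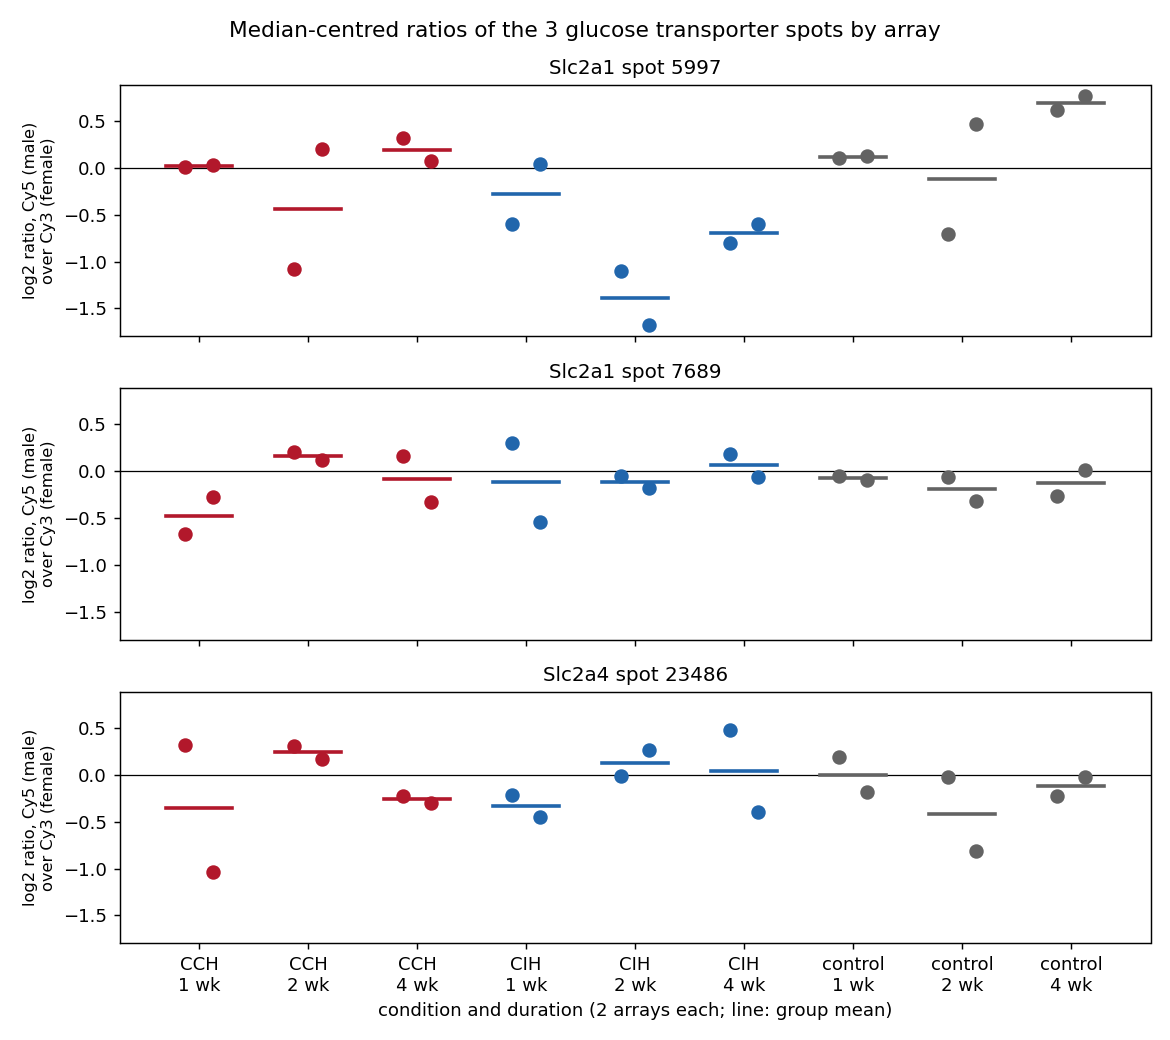
Median-centred log2 ratio of Cy5 (male) over Cy3 (female) on each array for the 3 spots, by condition and duration, with a line at the mean of the 2 arrays of a group. For spot 5997, 5 of 6 CIH arrays lie below 0, while spot 7689 and Slc2a4 overlap in all conditions.

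Averaged over durations, spot 5997 was -0.076 ± 0.51 in CCH, -0.79 ± 0.58 in CIH and 0.23 ± 0.53 in control hearts (SD, n = 6 arrays each). Spot 7689 was -0.13 ± 0.35 in CCH, -0.056 ± 0.29 in CIH and -0.13 ± 0.13 in control hearts. The Slc2a1 gene mean, the average of the 2 spots on each array, was -0.10 ± 0.27 in CCH, -0.42 ± 0.29 in CIH and 0.050 ± 0.25 in control hearts. Slc2a4 was -0.13 ± 0.52 in CCH, -0.054 ± 0.37 in CIH and -0.18 ± 0.34 in control hearts. For the Slc2a1 gene mean, the order of the conditions ran control, CCH, CIH from high to low, and for Slc2a4 it ran CIH, CCH, control. No neighbours in either order differed past the threshold, and all their ranges overlapped.

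Differences were tested with limma over all units with a value in each of the 9 groups, at an adjusted p of 0.05 (Benjamini-Hochberg). Of these 10272 units, 6945 were genes with a symbol, and the rest were single spots without 1 symbol. The Slc2a1 gene mean was lower in CIH than in control hearts by an estimate of -0.47 ± 0.14 (SE, 6 arrays each, 95% interval -0.77 to -0.17), a ratio of 0.721 on the linear scale. The limma adjusted p was 0.123, with an unadjusted p of 0.00455, so the difference did not pass. Of the 10272 units tested at this level, 0.00974% were called in CIH minus control, which is 1 unit, and 1307 had an unadjusted p under 0.05. The exact permutation test, which relabels arrays within each duration, gave p = 0.00926 for the gene mean and for spot 5997. That is the smallest p that its relabellings can give, and it became 0.13 after adjustment over the 28 exact tests made on these spots. Without CIH 4 weeks replicate 1 the estimate was -0.48 (limma adjusted p = 0.258), and without that array and CIH 1 week replicate 1 it was -0.49 (limma adjusted p = 0.529).

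Fitted as a spot of its own, spot 5997 was lower in CIH than in control hearts by -1.01 ± 0.23 (SE, 6 arrays each, 95% interval -1.50 to -0.53), a ratio of 0.495 on the linear scale. The limma adjusted p was 0.0447, just under the threshold. At spot level 1.42% of 14024 spots were called in this comparison, 196 lower and 3 higher. The call was lost when any 1 of 13 of the 18 arrays was left out, with limma adjusted p between 0.0551 and 0.210. It held without CCH 2 weeks replicate 1 or 2, CIH 1 week replicate 2, CIH 4 weeks replicate 2 or control 2 weeks replicate 1. Without CIH 4 weeks replicate 1 the estimate was -0.98 (limma adjusted p = 0.145), and without both doubtful CIH arrays it was -0.87 (limma adjusted p = 0.464). Spot 7689 had an estimate of 0.071 ± 0.16 for the same comparison (95% interval -0.27 to 0.41, limma adjusted p = 0.840), and its direction changed without both doubtful CIH arrays (-0.11). The interval of spot 7689 did not reach that of spot 5997, and the difference between the spots was not tested.

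By duration, CIH minus control for spot 5997 was -0.39 ± 0.40 at 1 week, -1.27 ± 0.40 at 2 weeks and -1.38 ± 0.40 at 4 weeks (SE, 2 arrays a group). The limma adjusted p-values were 0.9999, 0.119 and 0.132, so no single duration passed. Single arrays moved these values: at 1 week it was -0.070 without CIH replicate 1 and -0.71 without CIH replicate 2, and at 2 weeks it was -0.68 without control replicate 2 and -1.86 without control replicate 1. At 4 weeks it ranged from -1.48 to -1.28 without 1 array, the value without CIH replicate 1 being -1.28. At 2 weeks both CIH arrays were lower than either control array, and at 4 weeks likewise. Whether the effect of hypoxia changed with duration was tested with an F test, which did not pass for spot 5997 (limma adjusted p = 0.643), spot 7689 (0.602) or Slc2a4 (0.591). With the 3 conditions averaged, 2 weeks minus 1 week was -0.21 ± 0.14 for the Slc2a1 gene mean and 0.21 ± 0.22 for Slc2a4 (SE), and 4 weeks minus 1 week was 0.14 ± 0.14 and 0.12 ± 0.22, none of them called.

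CCH hearts gave smaller differences from control hearts, none of them called. CCH minus control was -0.30 ± 0.23 for spot 5997, -0.0028 ± 0.16 for spot 7689, -0.15 ± 0.14 for the Slc2a1 gene mean and 0.055 ± 0.22 for Slc2a4 (SE). The limma adjusted p-values were between 0.791 and 0.9986, and 0% of units were called, while 649 had an unadjusted p under 0.05. The 95% interval for the Slc2a1 gene mean ran from -0.45 to 0.15, and that for Slc2a4 from -0.42 to 0.53, so changes of that size were not excluded by these arrays. The lowest CCH reading of spot 5997, -1.08 on CCH 2 weeks replicate 1, lay far from the other 5 CCH arrays, which were between 0.0075 and 0.31. Without that array CCH minus control of spot 5997 was -0.090, and over all arrays left out in turn it ranged from -0.52 to -0.090. CCH minus CIH was 0.71 ± 0.23 for spot 5997 (limma adjusted p = 0.249) and 0.32 ± 0.14 for the gene mean (limma adjusted p = 0.506), and neither passed. Without CCH 2 weeks replicate 1, CCH minus CIH of spot 5997 was 0.92 and passed (limma adjusted p = 0.0301), and without both doubtful CIH arrays it was 0.57 (limma adjusted p = 0.952). Both hypoxia comparisons use the same 6 control arrays.

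For Slc2a4, CIH minus control was 0.13 ± 0.22 (SE, 6 arrays each, 95% interval -0.35 to 0.60, limma adjusted p = 0.782). It was -0.33 at 1 week, 0.55 at 2 weeks and 0.16 at 4 weeks, and none passed. CCH minus control was -0.36 at 1 week, 0.66 at 2 weeks and -0.14 at 4 weeks, and none passed, where 0.0195% of units were called at 2 weeks and 0% at the other durations. Both 2-week values rest in part on control 2 weeks replicate 2, at -0.82. Without that array they were 0.26 for CCH and 0.15 for CIH. Without CIH 4 weeks replicate 1, CIH minus control turned to -0.018.

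**Figure D2:**
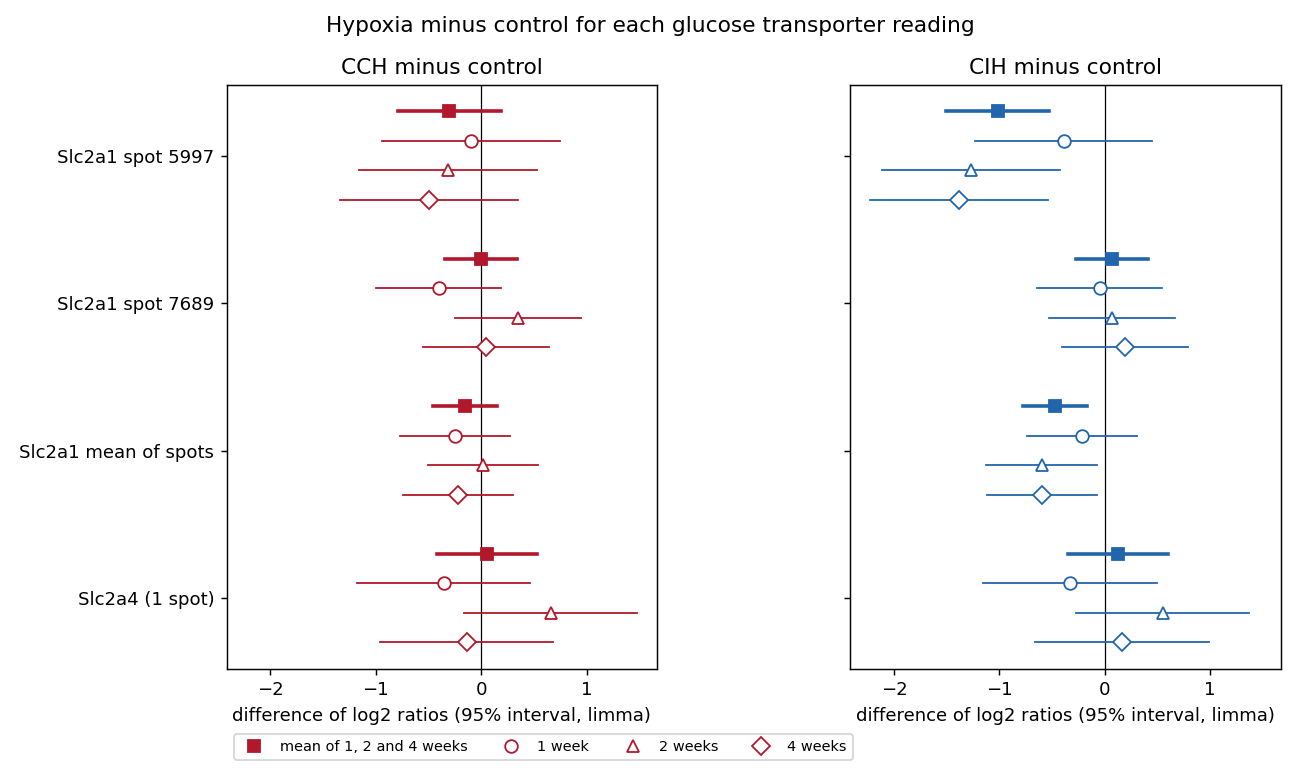
Difference of the log2 ratios of CCH or CIH hearts from control hearts, with 95% intervals from limma, over all durations (squares) and at 1, 2 and 4 weeks. The overall CIH estimate of spot 5997, -1.01, has an interval of -1.50 to -0.53, and the interval of spot 7689 includes 0.

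The male and female channels were compared within each condition by testing the ratio against 0, where sex and dye cannot be told apart. In CIH hearts the Slc2a1 gene mean was -0.42 ± 0.10 (SE, 6 arrays, limma adjusted p = 0.0165, negative on 6 of 6 arrays), so it was lower in the male than in the female channel, at a linear ratio of 0.747. At this level 12.1% of units were called in CIH hearts, 860 lower and 383 higher. The estimate came mostly from spot 5997, with -0.79 ± 0.16 (limma adjusted p = 0.00777), while spot 7689 had -0.056 ± 0.11 (limma adjusted p = 0.752), with 13.8% of spots called at spot level. The negative sign on every array did not: on CIH 1 week replicate 2 spot 5997 read 0.046 and spot 7689 read -0.54. The call of the gene mean was lost without CIH 1 week replicate 1 (limma adjusted p = 0.0705), CIH 1 week replicate 2 (0.0535), CIH 2 weeks replicate 2 (0.104) or CIH 4 weeks replicate 1 (0.0743). That of spot 5997 was lost without CIH 1 week replicate 1 (limma adjusted p = 0.0640), CIH 2 weeks replicate 2 (0.0583) or CIH 4 weeks replicate 1 (0.0524). Without both doubtful CIH arrays the estimate was -0.44 for the gene mean (limma adjusted p = 0.202) and -0.65 for spot 5997 (limma adjusted p = 0.1998). The exact sign-flip test gave p = 0.0312 for the gene mean, the smallest it can give, and 0.0625 for spot 5997, or 0.219 for each after adjustment over the 28 exact tests.

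Across all 18 arrays the Slc2a1 gene mean was -0.16 ± 0.058 (SE, limma adjusted p = 0.0539, negative on 11 arrays) and Slc2a4 was -0.12 ± 0.091 (SE, limma adjusted p = 0.332, negative on 12 arrays). Neither passed, although 27.7% of units were called in this comparison. In control hearts Slc2a1 was 0.050 ± 0.10 and Slc2a4 was -0.18 ± 0.16 (SE, n = 6 arrays; limma adjusted p = 0.921 and 0.770), and 0.00974% of units were called. In CCH hearts Slc2a1 was -0.10 ± 0.10 and Slc2a4 was -0.13 ± 0.16 (SE, n = 6 arrays; limma adjusted p = 0.517 and 0.621), and 10.8% were called.

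No relation between the readings of the 2 Slc2a1 spots was called over the 18 arrays. Pearson r was -0.274 (permutation p = 0.271, adjusted 0.503 over 39 relations). Spearman's rho was -0.154 (permutation p = 0.538, adjusted 0.749), and r was -0.262 without the 2 arrays farthest from the median. Among 1099 genes with exactly 2 spots measured on all arrays, the median r between the spots was 0.30, and 15.8% of them had a lower r than Slc2a1. Spot 5997 also varied more than most spots. Its SD over the arrays was 0.668, and 3.98% of the 9368 spots with full data had a larger one, against 80.7% for spot 7689 (SD 0.261) and 39.8% for Slc2a4 (SD 0.397). The Slc2a1 gene mean thus averages a spot that varied widely and one that varied little, and the 2 did not track each other. Whether each spot holds the sequence that its symbol names could not be examined. Readings of spot 5997, and of the gene mean that includes it, are therefore Slc2a1 readings by label only.

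The genes whose readings were most like those of spot 5997 were sought among 7033 genes with a value on at least 15 arrays. Mad2l2, a mitotic checkpoint and DNA repair protein, had r = 0.991 over 18 arrays. Cwf19l1 had r = 0.978, the RNA helicase gene Ddx42 0.974, the growth factor receptor gene Fgfr2 0.973 and the mitochondrial ribosomal protein gene Mrpl47 0.972. CIH minus control was -1.37 for Mad2l2, -1.14 for Cwf19l1, -0.99 for Ddx42, -1.41 for Fgfr2 and -1.45 for Mrpl47, and none was called at gene level (limma adjusted p = 0.0521 for each). These genes were picked for readings like those of spot 5997 on the same arrays, so negative differences follow from the choice. In all, 86 genes had r of at least 0.9 with spot 5997, against 0 for spot 7689 and 0 for Slc2a4. Of the 195 other spots called lower in CIH hearts, 188 had r of at least 0.8 with spot 5997, with a median r of 0.94, against 539 of all 14024 spots and a median of -0.056. These spots were picked by the same drop in CIH hearts as spot 5997, which favours a high r, so nothing is read from it. By size of the difference, spot 5997 ranked 132 among the 196 spots called lower. At the other end, Hdac3 had r = -0.806, Ap2a2 -0.796 and Pcnt -0.790. These correlations share arrays, and each array's ratio has 1 common scaling.

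Spot 7689 had other neighbours. The genes most like it were AU021092 (r = 0.897), Ndufaf2 (0.853), an assembly factor of respiratory complex I, Ints14 (0.849), Cisd2 (0.832) and Entpd5 (0.831). Least like it were Smarcb1 (-0.865), Zbtb34 (-0.839) and Bin3 (-0.821). The Slc2a1 gene mean was most like Pdgfrb (0.928), the pericyte and fibroblast receptor for platelet-derived growth factor, Tspan14 (0.927), Wdr5b (0.925), Gnpda1 (0.920) and Cdca2 (0.918), and least like Ksr1 (-0.744), Ier3ip1 (-0.723) and Ccsap (-0.723).

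The genes most like Slc2a4 were Tma7 (r = 0.887), Ldhb, the heart subunit of lactate dehydrogenase (0.857), Atp5j, a subunit of ATP synthase (0.845), Prkab2, a regulatory subunit of AMP-activated kinase (0.828), and Tmem37 (0.825). Least like Slc2a4 were Iqcb1 (-0.768), Itgb3bp (-0.692) and Thumpd3 (-0.672). None of the 5 most like genes was called in CIH minus control, with estimates between 0.088 for Prkab2 and 0.41 for Tmem37.

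**Figure D3:**
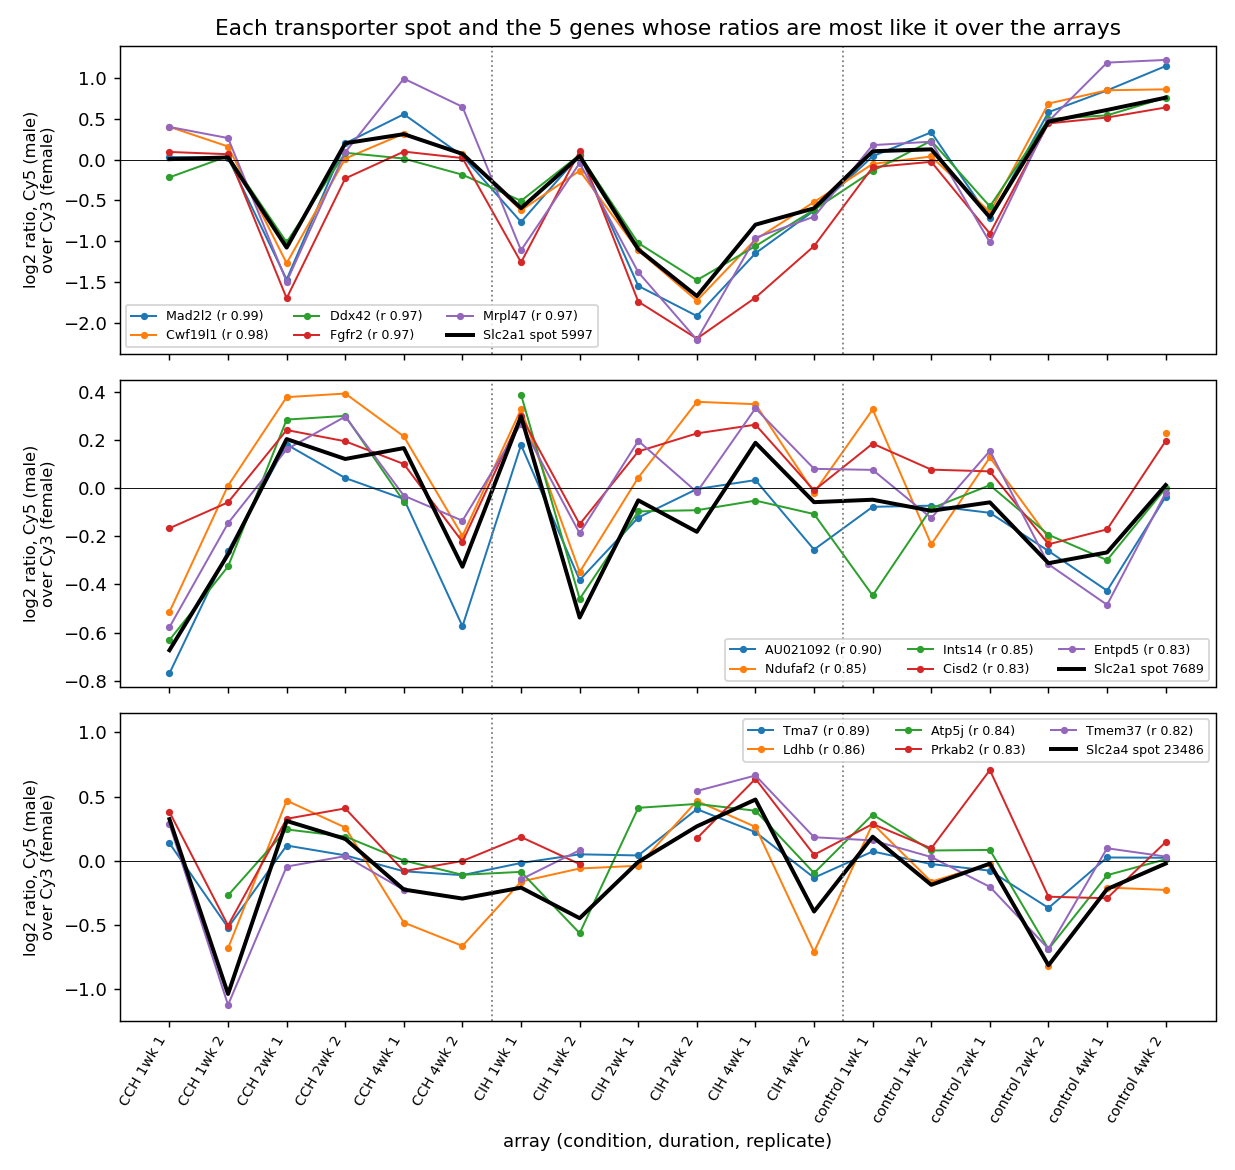
Log2 ratio of each transporter spot (black) and of the 5 genes most like it, over the 18 arrays ordered by condition, duration and replicate. Lines join arrays only to make a profile visible. The neighbours of spot 5997 have r of 0.972 to 0.991, those of spot 7689 0.831 to 0.897 and those of Slc2a4 0.825 to 0.887.

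The median of a list of red cell genes moved with spot 5997, though its single genes differed widely, as given below. Over the 18 arrays, the median of 16 red cell and precursor genes had r = 0.853 with spot 5997 (permutation p = 1e-05, which is the smallest that 100000 permutations can give, and 0.00039 after adjustment over 39 relations). Spearman's rho was 0.794 (permutation p = 0.00018, adjusted 0.00351), and r was 0.80 without the 2 arrays farthest from the median. Without both doubtful CIH arrays r was 0.846 over 16 arrays (permutation p = 6e-05, adjusted 0.00234). Within conditions r was 0.912 in CCH, 0.806 in CIH and 0.722 in control hearts, with 6 arrays each. The permutations moved arrays across conditions and durations, and the lists were chosen with earlier results of these data known. The permutation p-values are therefore not an independent test of the relation. For spot 7689 r was -0.484 (permutation p = 0.0411, adjusted 0.229, rho = -0.501) and for Slc2a4 -0.398 (permutation p = 0.102, adjusted 0.338, rho = -0.416).

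The red cell list median ranged from -1.18 to 0.645 in CCH, from -0.877 to 0.0368 in CIH and from -0.168 to 0.787 in control hearts. Of 15 red cell markers with a value on at least 15 arrays, 6 had r of at least 0.8 with spot 5997, as did 211 of all 7033 genes compared (3%). They were the embryonic globin genes Hba-x (0.970), Hbb-bh1 (0.962) and Hbb-y (0.810), Alas2 (0.928) and Fech (0.881) of haem synthesis, and Slc4a1 (0.875), the band 3 anion exchanger. The other 7 positive markers were Blvrb (0.789), Car2 (0.732), Ermap (0.494), Tal1 (0.44), Klf1 (0.425), Tspo2 (0.363) and Rhag (0.26). Tfrc, the transferrin receptor, had r = -0.514 and Sptb, erythroid spectrin, -0.303, so the list did not move as a whole. In CIH minus control the red cell list had a median of -0.66, with 12 of 16 genes negative, against a median of -0.0066 and 50.9% negative over all units. Of the 16 genes 0 were called, where 0.00974% of all units were called. Slc4a1 had -1.74 ± 0.37 and Blvrb, biliverdin reductase B, -0.94 ± 0.16 (SE, limma adjusted p = 0.0521 for each). That GLUT1 is a major membrane protein of human red cells is not evidence about mouse red cells, in which it was not measured. The part of red cell RNA in the readings of spot 5997 was not tested. In whole hearts the number of cells of a type and the RNA per cell cannot be told apart. Nor can a ratio tell less red cell RNA in male hearts from more in female hearts.

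**Figure D4:**
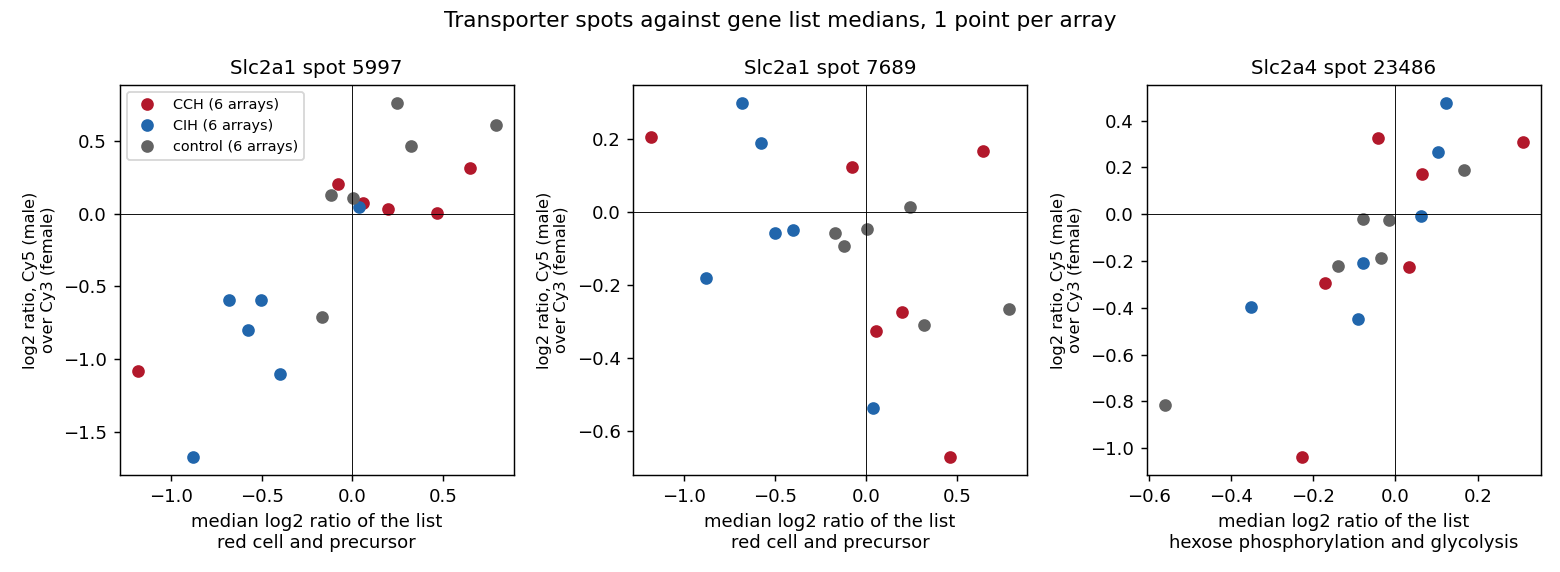
Log2 ratio of a transporter spot against the median log2 ratio of a gene list, 1 point per array, coloured by condition. Spot 5997 rises with the red cell list (r = 0.853), spot 7689 does not (r = -0.484), and Slc2a4 rises with the hexose phosphorylation and glycolysis list (r = 0.799).

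The median of a list of genes of glucose use moved with Slc2a4. The median of 18 genes of hexose phosphorylation and glycolysis had r = 0.799 with Slc2a4 (permutation p = 0.00014, adjusted 0.00273 over the 39 relations). Spearman's rho was 0.835 (permutation p = 6e-05, adjusted 0.00234), and r was 0.746 without the 2 arrays farthest from the median. Without both doubtful CIH arrays r was 0.792 over 16 arrays (permutation p = 0.00029, adjusted 0.00565). Within conditions r was 0.740 in CCH, 0.820 in CIH and 0.977 in control hearts, with 6 arrays each. The limits given above for the permutations and for the choice of lists hold here too. Of the 18 genes, 16 had a positive r with Slc2a4 and 9 had r of at least 0.5, against 7.64% of all 7033 genes. Beside Ldhb, these included the aldolase gene Aldoc (0.702), Ugp2 (0.642), which makes UDP-glucose, Pfkfb3 (0.620), which makes an activator of phosphofructokinase, and Pkm (0.614), pyruvate kinase. Pgm2 had r = -0.465 with Slc2a4 and 0.942 with spot 5997. The list median ranged from -0.228 to 0.309 in CCH, from -0.352 to 0.124 in CIH and from -0.561 to 0.167 in control hearts, and r of the deviations from the group means was 0.787. With the insulin signalling list Slc2a4 had r = 0.536 (permutation p = 0.0226, adjusted 0.202, rho = 0.321), which fell to 0.218 without the 2 farthest arrays. With the cardiomyocyte list it had r = 0.520 (permutation p = 0.0280, adjusted 0.202, rho = 0.478), which fell to 0.290 in the same way. The list of GLUT4 vesicle traffic had r = 0.145 (permutation p = 0.566, rho = 0.156). By gene, 2 of 4 cardiomyocyte, 1 of 18 insulin signalling and 0 of 22 vesicle traffic genes had r of at least 0.5 with Slc2a4. The median r by gene was 0.484 for the cardiomyocyte list and 0.497 for the glycolysis list, so a relation by gene was not particular to glycolysis.

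The other facilitative transporters gave few readings. Slc2a6 was -0.29 ± 0.66 in CCH, -0.30 ± 0.34 in CIH and -0.0024 ± 0.43 in control hearts (SD, n = 6 arrays each). Slc2a8, an intracellular transporter, was -0.26 ± 0.27 in CCH, -0.12 ± 0.14 in CIH and -0.075 ± 0.13 in control hearts. Over all arrays Slc2a8 was lower in the male than in the female channel, at -0.15 ± 0.043 (SE, limma adjusted p = 0.0184), and Slc2a6 was not called (-0.20, limma adjusted p = 0.139). Neither was called in CCH or CIH against control. Slc2a12 had values on 10 arrays, Slc2a2, the liver and islet transporter, on 5 and Slc2a3, the neuronal transporter, on 3, and these were not tested.

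In the genes that move, regulate or follow the transporters, calls were made over all arrays, for the male against the female channel, where 27.7% of units were called. None was called in either hypoxia against control, where 0% of units were called for CCH and 0.00974% for CIH. Of 22 genes of GLUT4 vesicle traffic, 2 were higher and 4 lower in the male channel. Stxbp3, which binds the docking syntaxin of GLUT4 vesicles, was higher by 0.40 ± 0.060, while the vesicle protein gene Vamp8 (-0.28 ± 0.058) and Aspscr1 (-0.25 ± 0.064), whose product tethers GLUT4 inside the cell, were lower (SE). Of 18 insulin signalling genes, 1 was higher and 3 lower, with Pik3cb at 0.18 ± 0.056, Akt2 at -0.23 ± 0.047 and Tsc2 at -0.21 ± 0.065. Of 9 genes of AMP-activated kinase and contraction signals, Prkag2, a subunit of that kinase, was higher (0.35 ± 0.054) and Stk11, its upstream kinase LKB1, was lower (-0.34 ± 0.082).

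Of 19 genes that regulate the transcription or turnover of the transporters, 1 was higher and 4 lower in the male channel, where 27.7% of all units were called. The transcription factor Myc was higher (0.43 ± 0.094), and Hdac5 (-0.25 ± 0.055), a repressor of Slc2a4 transcription, and Txnip (-0.24 ± 0.066), which promotes removal of GLUT1 from the surface, were lower. Of 18 genes of hexose phosphorylation and glycolysis, 1 was higher and 2 lower. The muscle phosphofructokinase gene Pfkm (-0.32 ± 0.066) and Pkm (-0.24 ± 0.056) were lower, and the lactate exporter gene Slc16a3 (0.24 ± 0.052) was higher. Adjusted p-values from limma for the genes named here were between 0.000722 and 0.0291. No list of vesicle traffic, signalling, regulators or glycolysis held a larger share of called genes than all units did.

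Against control, the members of these lists with the smallest p had the following values, none of them called. In CIH hearts they were Stxbp3 (0.46) and Kif5b (0.44) of vesicle traffic, Prkcz (0.49) and Pik3r1 (0.47) of insulin signalling, Cab39 (0.49) and Prkaa1 (-0.22) of energy stress signals, Mef2a (0.42) and Txnip (-0.38) of the regulators, and Pgm2 (-0.79) and the lactate carrier gene Slc16a1 (0.50) of glycolysis. In CCH hearts they were Vamp8 (-0.34) and Rab13 (-0.38), Shc1 (-0.38) and Akt2 (-0.19), Prkag2 (0.29) and Cab39 (0.22), Thra (0.64) and Gipc1 (0.32), and Ldha (0.32) and Slc16a1 (0.28). The limma adjusted p-values were between 0.107 and 0.440 in CIH and between 0.699 and 0.766 in CCH. List medians in CCH minus control were 0.024 for vesicle traffic, 0.079 for insulin signalling, 0.065 for energy stress signals, 0.013 for the regulators and 0.078 for glycolysis, against -0.036 over all units. In CIH minus control they were 0.014 for vesicle traffic, 0.12 for insulin signalling, 0.049 for energy stress signals, 0.046 for the regulators and 0.053 for glycolysis, against -0.0066 over all units.

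**Figure D5:**
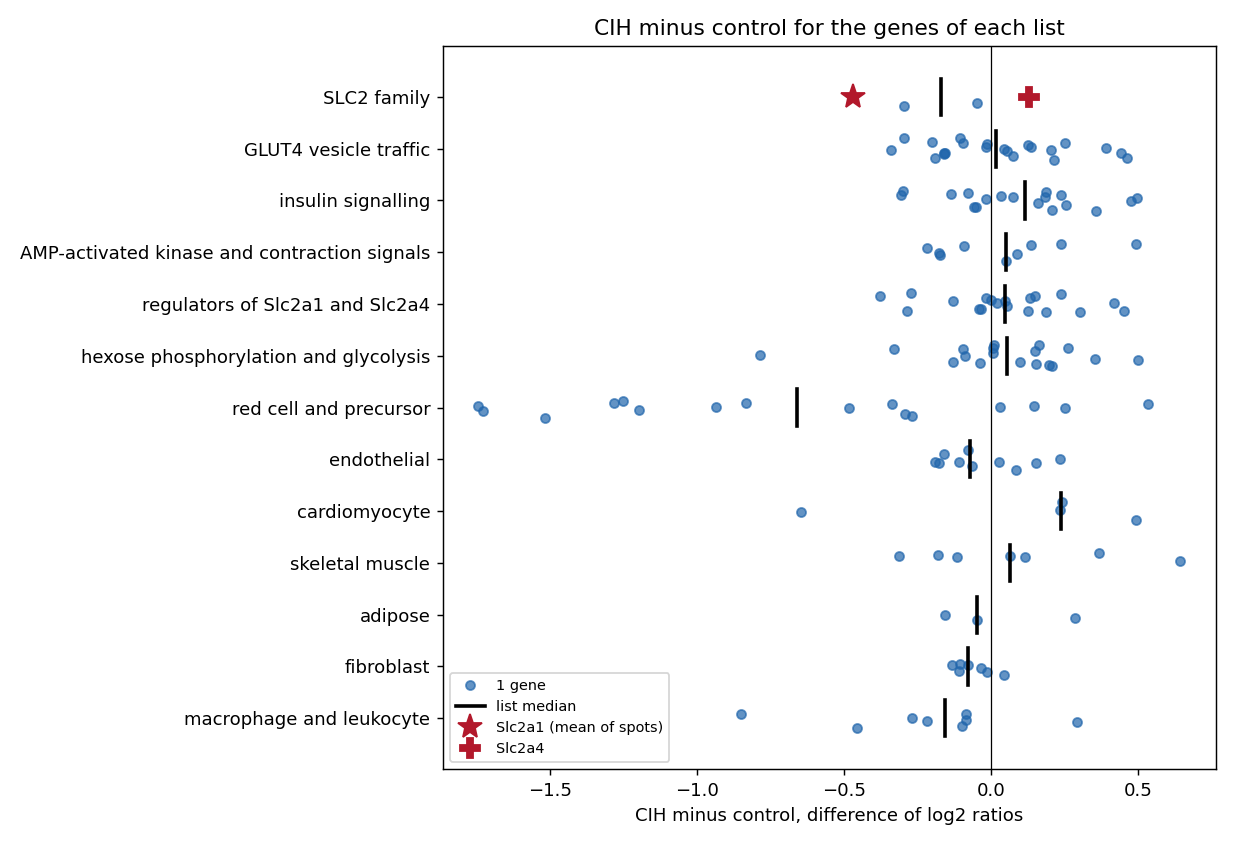
CIH minus control difference of log2 ratios for each tested gene of each list, with the list median as a bar that leaves out Slc2a1 and Slc2a4, which are drawn as a star and a plus. The red cell list has the lowest median, -0.66, and none of the genes drawn was called, where 0.00974% of all units were called.

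Markers of other cell types were read in the same way. In CIH minus control the list medians were -0.072 for 10 endothelial genes, 0.24 for 4 cardiomyocyte genes, 0.063 for 7 skeletal muscle genes, -0.050 for 3 adipose genes, -0.081 for 7 fibroblast genes and -0.16 for 8 macrophage and leukocyte genes. Each list had 0 called, where 0.00974% of all units were called, so the lack of calls says little about these markers. The lung list had 1 tested gene, Sftpb (-0.23), and the list of sodium-glucose cotransporters had none. Over all arrays 6 of the 8 macrophage and leukocyte genes were lower in the male channel, where 27.7% of all units were called, led by C1qa (-0.64 ± 0.10), C1qb (-0.37 ± 0.071) and Tyrobp (-0.33 ± 0.066). Also lower were Icam2 (-0.35) and Emcn (-0.17) of endothelium, Myl1 (-0.35) and Atp2a1 (-0.30) of skeletal muscle, Fech (-0.39) and Rhag (-0.21) of red cells and Dcn (-0.29) of fibroblasts, while Col3a1 (0.19) was higher. Over the arrays, the median of none of these lists but the red cell list had an adjusted p under 0.05 with any of the 3 transporter spots.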

How the data were processed

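The values used are log2 ratios of the 2 channels per spot as deposited by the authors. In the deposited files the linear ratio averages 1 on each array. Background correction, spot filtering and normalization are not given in the sources used here. The labels name the dyes but not the direction of the ratio, which was taken from the sign of Eif2s3y. No dyes were swapped, per the labels. Symbols come from the platform annotation, and positions and the upstream sequence from RefSeq (GRCm38.p6).

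The median of each array was subtracted, spots that share 1 symbol were averaged, and spots without 1 symbol were kept as units of their own. A unit was tested if every one of the 9 groups had a value for it on 1 array or more (10272 units, or 14024 single spots) in limma 3.58.1 under R 4.3.3, with 9 group means, two-sided, with Benjamini-Hochberg adjustment at 0.05. The fit was tested on simulated data. Exact tests relabelled arrays within a duration or flipped signs, two-sided, and relations over arrays used 100000 permutations. Same-lettered arrays were checked for pairing and do not pair.

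The members, the lists and these comparisons were chosen with earlier results of these data known. Genes were named by rule: the members, measured SLC2 family genes, up to 3 called genes per list over all arrays with the smallest p, the 2 with the smallest p in each hypoxia against control, and the 5 most and 3 least like genes. The most like genes of single spots, the 6 red cell markers and the glycolysis genes beside Slc2a4 were chosen after their values were seen. Alternatives were centring, scaling, filters, spot averaging, the model, disputed labels and leaving out arrays.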

Additional observations from a re-analysis of the deposited data

Results flagged for a closer look

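In CCH hearts the lowest reading of Slc2a1 spot 5997, -1.0793 on CCH 2 weeks replicate 1, lay far from the other 5 arrays, with a gap to the nearest of them of 0.78 of the whole range. On the same array spot 7689 read 0.20 and the red cell list median was -1.18, the lowest of the 18 arrays. In CIH hearts the lowest reading of Eif2s3y, -0.0255 on CIH 4 weeks replicate 1, lay far from the other 5, with a gap of 0.714 of the range. A gap over 0.625 of the range marks such a reading in a group of 6 arrays. Chance gives about 1 in 20 such groups, and 2 of the 15 groups examined had one.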

How the results depend on the processing

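There were 16 other settings, of which each fitted value was recomputed under 10 to 14, and each was recomputed without each of the 18 arrays in turn. CIH minus control of the Slc2a1 gene mean stayed negative and missed the threshold under every setting that kept the mean (-0.50 to -0.34, limma adjusted p 0.0907 to 0.604). As single spots it was -1.01 for spot 5997, which passed, and 0.071 for spot 7689. Read from spot 7689 alone, Slc2a1 also changed sign in control against 0 (-0.13), CCH minus CIH (-0.074), 2 weeks minus 1 week (0.18), CCH minus control at 4 weeks (0.047), and CIH minus control at 2 weeks (0.069) and 4 weeks (0.19), and CIH against 0 was no longer called (-0.056). From spot 5997 alone, CCH minus control at 2 weeks was -0.32. The call of spot 5997 in CIH minus control was lost with quantile normalization (-0.89), after scaling of the arrays (-0.76), with no filter (limma adjusted p = 0.0551), with condition plus duration in place of 9 group means (0.0529) and with CIH 1 week replicate 1 put in CCH 2 weeks (-0.91), and its call in CIH against 0 after scaling of the arrays (-0.65, limma adjusted p = 0.0673).

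CIH against 0 of the Slc2a1 gene mean lost its call after scaling of the arrays to 1 spread (-0.36), with CIH 1 week replicate 1 put in CCH 2 weeks (-0.44) and without both doubtful CIH arrays (-0.44), an alternative chosen after seeing the data. All arrays against 0 passed with no centring (-0.21, limma adjusted p = 0.0132). Control against 0 turned to -0.020 after scaling of the arrays, and CCH minus control at 2 weeks to -0.22 with control 2 weeks replicate 1 put in control 1 week. Without both doubtful CIH arrays, Slc2a4 turned to -0.058 in CIH minus control, 0.11 in CCH minus CIH and -0.27 in CIH minus control at 4 weeks. Spot 7689 then had -0.11 in CIH minus control and 0.11 in CCH minus CIH. With CIH 1 week replicate 1 put in CCH 2 weeks, spot 7689 had -0.068 in CIH minus control, 0.081 in CCH minus CIH and 0.012 in CCH minus control. Its CCH minus control was also 0.015 after quantile normalization, 0.020 with scaled arrays and 0.038 with control 2 weeks replicate 1 put in control 1 week, and its CIH minus control at 2 weeks was -0.028 with no centring. The cause of these changes was not tested, and none of the values that changed sign was called.

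The letters A and B did not pair the arrays: same-letter deviations from the group means had r between -0.559 and 0.46 over 21 pairs of groups, 9 of them above 0.1. With the letter as a replicate block, CIH minus control kept its values. CCH against 0 turned to 0.040 for the Slc2a1 gene mean, 0.076 for spot 5997 and 0.0048 for spot 7689, and CCH minus control to -0.11 for Slc2a4 and 0.13 for spot 7689, with CCH minus CIH at 0.061 for spot 7689. The block gave 93 units in CCH against 0, 160 in CIH minus control and 0 in CCH minus CIH.

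Without 1 array at a time, the gene mean of Slc2a1 ranged from -0.48 to -0.36 in CIH against 0, from -0.19 to -0.12 over all arrays, from -0.027 to 0.13 in control against 0 and from -0.28 to 0.31 in CCH minus control at 2 weeks. Slc2a4 ranged from -0.015 to 0.44 in 2 weeks minus 1 week, -0.11 to 0.34 in 4 weeks minus 1 week, -0.35 to 0.10 in CCH against 0, -0.20 to 0.092 in CIH against 0, -0.30 to 0.15 in CCH minus CIH, -0.17 to 0.28 in CCH minus control, -1.04 to 0.32 in the same at 1 week, -0.018 to 0.27 in CIH minus control and -0.27 to 0.60 in the same at 4 weeks. Spot 5997 ranged from -0.29 to 0.14 in CCH against 0. Spot 7689 ranged from -0.21 to 0.066 in CCH minus CIH, -0.085 to 0.079 in CCH minus control, -0.20 to 0.083 in CIH against 0, -0.068 to 0.21 in CIH minus control, -0.47 to 0.37 in the same at 1 week and -0.057 to 0.20 at 2 weeks.

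The number of units past the threshold moved more. In CIH minus control, 1 unit became 192 with no centring, 109 over units on all arrays, 278 with control 2 weeks replicate 1 put in control 1 week, 199 with every spot as its own unit, and 0 with scaled arrays, with spots centred before averaging, with condition plus duration or without both doubtful CIH arrays (1 to 305 without 1 array). In CCH minus CIH the 1 unit became 0 under those same 4 settings and with every spot as its own unit (0 to 196 without 1 array), and CCH minus control gave 0 to 1 without 1 array. In CIH against 0, 1243 became 394 with scaled arrays, 805 with condition plus duration, 281 with CIH 1 week replicate 1 put in CCH 2 weeks, 5 without both doubtful arrays and 1940 with every spot as its own unit (145 to 2202 without 1 array). In CCH against 0, 1107 became 1787 with no centring, 361 after quantile normalization, 199 with scaled arrays, 592 with condition plus duration and 1666 with CIH 1 week replicate 1 put in CCH 2 weeks (207 to 1263 without 1 array). In control against 0, 1 became 2 with no centring, 33 after quantile normalization, 21 with scaled arrays, 8 with no filter and 3 with spots centred before averaging (1 to 34 without 1 array). Over all arrays, 2845 became 1674 without both doubtful arrays. Signal over background was not given in the files used here, and 2 arrays a group limit the precision.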
